A study of Mus musculus with 6 samples.

Results

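The genes described here mark the endothelium, the cells that line blood and lymph vessels. The 45 members were taken from a list of pan-endothelial, alveolar capillary, arterial and lymphatic marker genes, by the symbol that the platform annotation gives each probe set. Of these, 44 had at least 1 probe set naming that gene alone, among 18193 such genes on the array, and 43 were tested. Gja5 lay below the level required for testing, and Prx had no probe set of its own, so its expression was not analysed here. The values come from 6 samples of fetal mouse lung at stage E18.5, shortly before birth, with 1 Affymetrix array per sample. Control-labelled lungs (n = 3) have the genotype Nfibf/f, in which the Nfib gene is floxed (flanked by loxP sites); Nfib encodes nuclear factor I B, a transcription factor. Cre-labelled lungs (n = 3) have the genotype Nfibf/f, Dermo1-Cre, so both groups carry the floxed alleles and their labels differ by Dermo1-Cre. Dermo1-Cre places Cre under control of Dermo1, also called Twist2, which is active in mesenchymal cells. In which cells of these lungs Cre acted was not measured here. RNA was taken from the lungs, so each value sums over all cell types. The labels call the samples of a group biological replicates.

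Endothelial cells share a set of adhesion and junction proteins, such as PECAM-1 and VE-cadherin, and a network of ETS and SOX transcription factors. In the lung, the capillaries of the future gas exchange surface become specialised before birth: some cells express carbonic anhydrase 4 and endothelin receptor B, others the apelin receptor and the lipase anchor GPIHBP1. Lymphatic endothelium branches off from veins under the control of Prox1 and carries the hyaluronan receptor LYVE-1. Mesenchymal cells and pericytes act on vessels through secreted factors such as angiopoietin-1, the ligand of the endothelial receptor Tek.

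On the linear scale the trimmed mean was 150.04 to 150.05 on every array, a level the deposited processing set. Across probe sets the correlation was 0.940 to 0.950 between replicates and 0.931 to 0.949 between groups. Nfib itself was called higher in Cre-labelled lungs on 5 of its 6 tested probe sets, and the sixth did not pass (-0.11, limma adjusted p = 0.71). No source used here says whether these probes lie in the deleted part, so Nfib does not check the labels, and every direction below depends on the deposited group labels being right. The endothelial markers Pecam1, Cdh5, Tek, Tie1 and Kdr were present on all arrays, with group means between 8.04 and 10.47. Of 27022 probe sets tested with limma, 963 passed an adjusted p of 0.05, which is 3.56%. Each difference is on the log2 scale and is negative where the Cre-labelled mean was lower; SE is its standard error in the limma fit. A gene is represented by its brightest probe set unless stated otherwise, and because probe sets differ in efficiency, the signal of a gene was not ranked against that of another.

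Carbonic anhydrase 4 of the alveolar capillaries showed the largest difference among the endothelial genes, and most other members were slightly lower in Cre-labelled lungs without passing the test. Of 43 tested members, 3 fell, none rose and 40 did not pass an adjusted p of 0.05. The 3 were Car4 (4.41-fold lower), the leukocyte adhesion gene Icam1 (1.39-fold lower) and Lyve1, listed here with the lymphatic genes (1.41-fold lower). They make up 6.98% of the tested members, beside 3.04% of all 12826 tested genes that fell and 1.92% that rose. By an unadjusted p under 0.05, 19 members (44.2%) were lower and 2 were higher, beside 12.8% and 10.7% of all genes. The groups did not overlap for 17 members that were lower (39.5%, beside 16.5% of all genes) and for 4 that were higher (9.3%, beside 15.3%). The mean was lower in Cre-labelled lungs for 34 members, or 79.1%, and for 51.5% of all genes. With arrays scaled to the mean of Pecam1, Cdh5, Tek and Tie1, 22 of the other 39 members were lower, against 31 of the 39 as deposited. That scaling raised the difference of every gene by the same amount, so genes with a deposited difference below -0.15 stayed lower. Among all genes -0.15 lies between percentiles 31 and 32, so 31% to 32% were lower on that scale. The median difference of the members was -0.22 as deposited and -0.065 on that scale. For all genes it was -0.01 as deposited and 0.14 on that scale. Members were chosen as markers of the same cells, with earlier results of these data known, and are not independent of each other. These counts are therefore a description and not independent support. In whole lungs, fewer endothelial cells and less RNA per endothelial cell cannot be told apart.

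**Figure D1:**
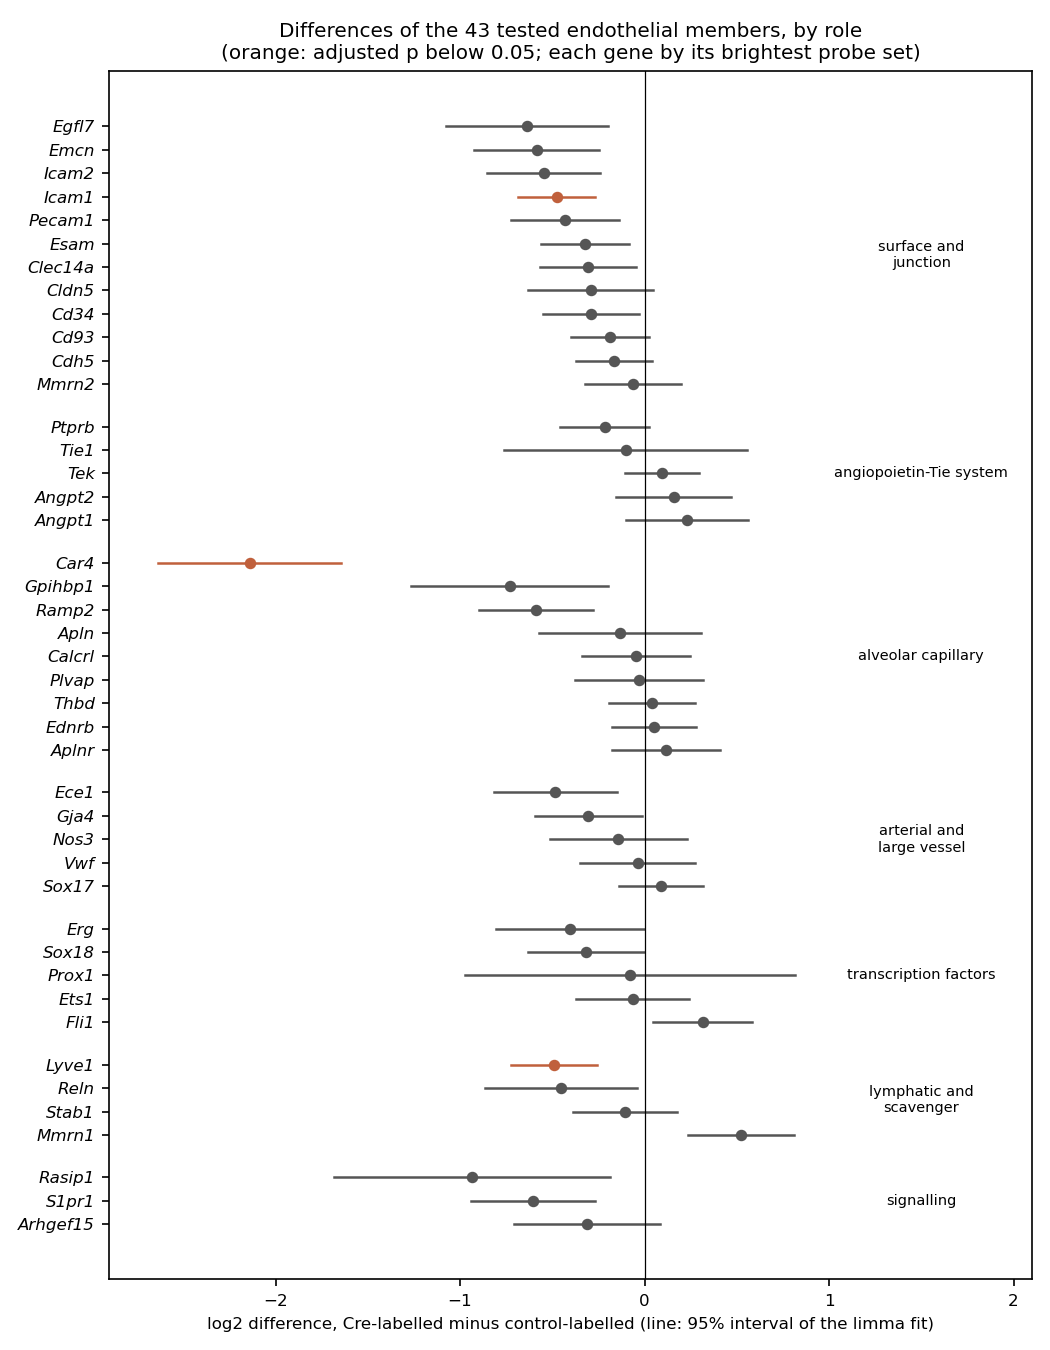
Log2 difference (x axis, Cre-labelled minus control-labelled) of each of the 43 tested members (y axis), grouped by role, each by its brightest probe set, with the 95% interval of the limma fit on 3 against 3 arrays; Sox17 is drawn with the arterial genes and Prox1 with the transcription factors. Car4 at -2.14 stands alone on the left, Icam1 and Lyve1 are the other genes in orange (adjusted p below 0.05), and all 12 surface and junction genes lie left of 0 on the deposited scale (after scaling to the mean of Pecam1, Cdh5, Tek and Tie1, 9 of the 10 that are not scaling genes). Of all genes, 51.5% were lower as deposited and 31% to 32% after that scaling.

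**Figure D2:**
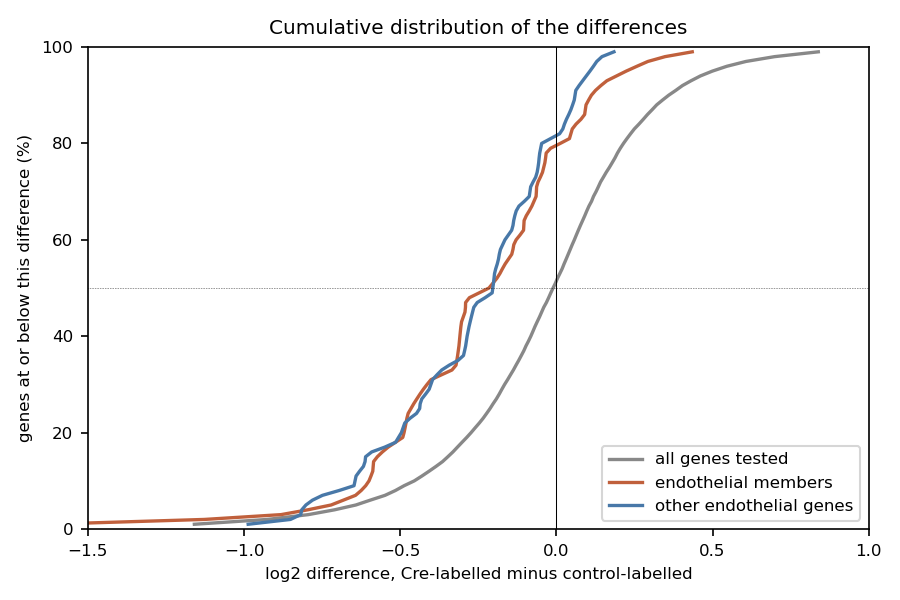
Percentage of genes (y axis) at or below a given log2 difference (x axis, Cre-labelled minus control-labelled, drawn from percentile 1 to 99 and cropped at the left), for all 12826 tested genes, the 43 tested members and 46 other endothelial genes. The members cross the level of 50% at -0.22 and all genes at -0.01.

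Of the 9 tested alveolar capillary genes, Car4 fell and the other 8 did not pass. Car4 encodes a membrane-bound carbonic anhydrase that helps release carbon dioxide and marks capillary cells of the gas exchange surface. Its brighter probe set read 6.57, 6.65 and 7.13 in control-labelled lungs and 4.39, 4.73 and 4.82 in Cre-labelled lungs. All 3 Cre-labelled arrays lay more than 1 log2 unit below the lowest control-labelled array. The difference was -2.14 ± 0.22 SE (limma adjusted p = 0.0039), leaving 22.7% of the control-labelled signal. A separate Car4 probe set read 6.82, 6.77 and 7.12 against 3.45, 5.0 and 4.99, a difference of -2.42 ± 0.38 SE (adjusted p = 0.014). Car4 passed in all 19 alternative fits that tested it, including each of the 6 without 1 array (difference -2.25 to -1.97). Its size depends on how low signals are treated: after adding 64 to the linear signal the difference was -0.97, and the Cre-labelled values lie close to the level of 4.0 required for testing.

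The differences of those 8 ranged from -0.73 to 0.12. Ednrb, the endothelin receptor gene expressed with Car4 in the same capillary cells, read 10.67, 10.60 and 10.72 in control-labelled lungs, against 10.83, 10.68 and 10.64 in Cre-labelled lungs. The groups overlapped, and the difference was 0.05 with a 95% interval from -0.18 to 0.28, against -2.63 to -1.64 for Car4. Its other 2 probe sets differed by -0.08 and 0.05. Apln, the apelin gene, which marks the same cells, had a difference of -0.13 (interval -0.57 to 0.30), with overlapping groups. The apelin receptor gene Aplnr, of the other capillary type, read 11.71, 11.86 and 12.06 against 11.98, 11.93 and 12.07, a difference of 0.12 (interval -0.18 to 0.41). Plvap, which encodes the diaphragm protein of endothelial pores, and Thbd, the gene of the anticoagulant receptor thrombomodulin, had differences of -0.03 and 0.04, with overlapping groups. Gpihbp1, whose product holds lipoprotein lipase on capillaries, read 9.51, 9.86 and 10.38 against 8.77, 9.23 and 9.56. Its groups overlapped by a narrow margin, and the difference of -0.73 ± 0.24 SE did not pass (adjusted p = 0.13).

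Ramp2 and Calcrl encode the subunits of a receptor for the vasodilator peptide adrenomedullin, and neither passed. Ramp2, the accessory subunit, read 10.64, 10.84 and 10.92 in control-labelled lungs, against 10.41, 10.28 and 9.95 in Cre-labelled lungs. Its groups did not overlap, and the difference of -0.59 ± 0.14 SE lay just above the threshold (limma adjusted p = 0.052). Calcrl, the receptor subunit that pairs with it, read 10.66, 10.89 and 10.94 against 10.56, 10.91 and 10.88, and the difference was -0.05 (interval -0.34 to 0.25). The difference between these 2 genes was not tested.

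Within each array, Car4 was also compared with the mean of Pecam1, Cdh5, Tek and Tie1, an approach chosen after seeing the data. The log2 signal of Car4 minus that mean was -3.02, -3.01 and -2.35 in control-labelled lungs, against -5.15, -4.85 and -4.35 in Cre-labelled lungs. The groups did not overlap, and the shift was -1.99. An exact permutation test gave a two-sided p of 0.10, and no smaller value is possible with 3 arrays in each group.

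Promoter sequence of the genes above was read to show what lies before their start sites. RefSeq promoters (GRCm38.p6) were matched by symbol for 22 of the 45 members, with 30 start sites, and the 250 bases before each start were searched on both strands for the nuclear factor I core motif TTGGC and for the ETS core motif, AGGAAG with its variant CGGAAG. The nuclear factor I core was in 16 of 30 member windows (53.3%) and in 41.5% of all 32851 windows, the ETS core in 14 (46.7%) and in 39.2%. A gene with several start sites counts several times, and windows of Ece1 overlap, so the windows are not independent. The palindromic nuclear factor I site, in which the core and its reverse complement are separated by 5 bases, was in none of the member windows and in 0.037% of all windows. Shown 5′ to 3′ are the windows of Car4 (chr11:84957504-84957753, plus strand) and Icam1 (chr9:21015690-21015939, plus strand), which fell, of Ednrb (chr14:103843702-103843951, minus strand), which did not pass, and of Mmrn1 (chr6:60944067-60944316, plus strand), with the largest positive difference. Capitals mark both kinds of motif.
Car4: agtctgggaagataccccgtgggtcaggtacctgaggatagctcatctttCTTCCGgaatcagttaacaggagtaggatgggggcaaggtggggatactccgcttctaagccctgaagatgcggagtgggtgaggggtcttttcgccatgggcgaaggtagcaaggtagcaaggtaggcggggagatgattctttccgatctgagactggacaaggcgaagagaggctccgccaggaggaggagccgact
Icam1: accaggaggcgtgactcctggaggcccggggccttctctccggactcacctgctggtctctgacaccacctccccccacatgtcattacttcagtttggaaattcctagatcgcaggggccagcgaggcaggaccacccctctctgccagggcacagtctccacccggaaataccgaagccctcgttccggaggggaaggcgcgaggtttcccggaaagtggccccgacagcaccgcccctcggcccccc
Ednrb: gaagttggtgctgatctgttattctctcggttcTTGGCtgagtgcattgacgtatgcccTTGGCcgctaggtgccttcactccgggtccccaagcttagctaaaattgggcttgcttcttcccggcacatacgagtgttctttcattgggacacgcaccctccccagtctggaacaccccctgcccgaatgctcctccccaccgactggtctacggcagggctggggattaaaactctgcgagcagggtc
Mmrn1: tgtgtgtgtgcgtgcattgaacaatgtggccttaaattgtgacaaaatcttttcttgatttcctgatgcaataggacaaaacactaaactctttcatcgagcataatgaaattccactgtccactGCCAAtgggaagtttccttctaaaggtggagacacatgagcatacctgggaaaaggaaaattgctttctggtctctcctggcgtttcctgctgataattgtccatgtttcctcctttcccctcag
The Car4 window holds 1 ETS core, which begins 200 bases before the start site, and no nuclear factor I core. The Icam1 window holds neither motif. In the Ednrb window the nuclear factor I core begins 217 and 191 bases before the start, and in the Mmrn1 window 125 bases before it. A match is a run of letters and not a measured binding site, and these windows leave out enhancers.

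All 12 surface and junction genes had lower means in Cre-labelled lungs (with arrays scaled to the mean of Pecam1, Cdh5, Tek and Tie1, 9 of the 10 that are not scaling genes), and 1 of them, Icam1, passed the test. Their median difference was -0.32. The groups did not overlap for 9 of the 12 (75%), beside 16.5% of all genes that were lower without overlap. A lower mean was found for 51.5% of all genes as deposited and for 31% to 32% after that scaling. Icam1 encodes an adhesion receptor for leukocytes that alveolar epithelial cells make as well. It read 9.50, 9.53 and 9.62 in control-labelled lungs, against 9.06, 9.16 and 9.01 in Cre-labelled lungs, with replicates close together in both groups. The difference was -0.48 ± 0.09 SE (limma adjusted p = 0.027). Icam1 missed the threshold in each of the 6 fits without 1 array (adjusted p 0.054 to 0.087), although its difference ranged only from -0.52 to -0.44.

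Several surface genes lay just short of the threshold. Icam2, an adhesion molecule gene expressed throughout the endothelium, read 10.07, 10.26 and 10.35 against 9.55, 9.96 and 9.53, a difference of -0.55 ± 0.14 SE (adjusted p = 0.061). Without Cre-labelled replicate 2 its difference was -0.68 and it passed (limma adjusted p = 0.035). Emcn, the gene of the capillary and venous sialomucin endomucin, read 10.88, 11.19 and 10.97 against 10.43, 10.70 and 10.16, a difference of -0.59 ± 0.15 SE (adjusted p = 0.066). In both genes every Cre-labelled array lay below every control-labelled array. Egfl7, which encodes a matrix-bound factor secreted by endothelial cells, had 4 tested probe sets with differences of -0.64, -0.72, -0.41 and -0.61 (adjusted p 0.058 to 0.12). On the brightest of them the groups overlapped, and on the other 3 they did not.

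The adhesion genes that define endothelium did not pass the test. Pecam1 read 10.19, 10.24 and 10.32 in control-labelled lungs, against 9.95, 9.98 and 9.53 in Cre-labelled lungs, a difference of -0.43 ± 0.13 SE (limma adjusted p = 0.11). Cre-labelled replicate 3 had the lowest value, and without it the difference was -0.29. Cdh5, the gene of VE-cadherin, read 10.44, 10.48 and 10.49 against 10.28, 10.37 and 10.26. These groups did not overlap either, but the difference was -0.17 with an interval from -0.37 to 0.04 (adjusted p = 0.36). Its dim probe set had a difference of -0.32 and overlapping groups. The junction genes Esam and Cldn5 (claudin-5) had differences of -0.32 and -0.29, the stem cell and capillary antigen gene Cd34 one of -0.29, and the C-type lectin genes Clec14a and Cd93 ones of -0.31 and -0.19. Clec14a read 9.05, 9.07 and 9.06 against 8.89, 8.84 and 8.52. Cd93 read 10.80, 10.84 and 10.88 against 10.62, 10.68 and 10.65. Neither of these lectin genes had overlapping groups, but each had another probe set with a difference of the opposite sign. Mmrn2, an endothelial gene whose product binds both, read 8.21, 8.07 and 7.94 against 8.02, 8.12 and 7.88, a difference of -0.06 (interval -0.32 to 0.20), and 1 of its 4 probe sets had the opposite sign (0.40).

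**Figure D3:**
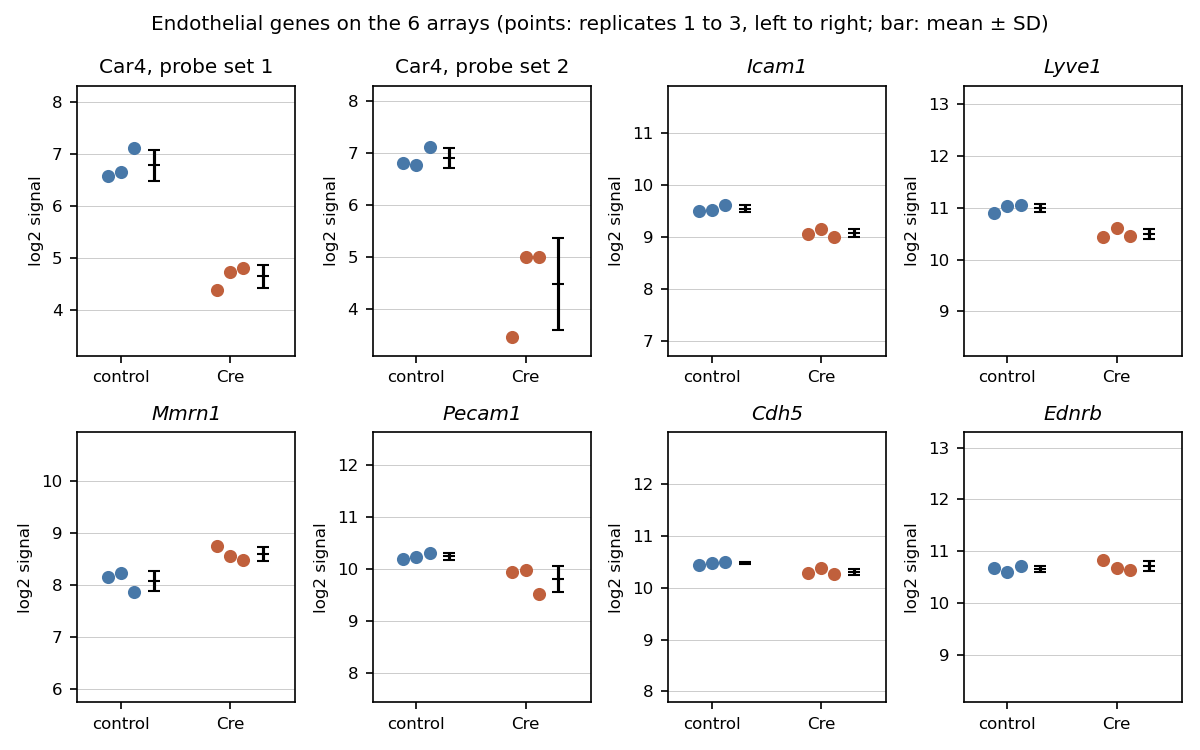
Log2 signal (y axis, each panel spanning the same range of 5.2 units) on each of the 6 arrays for both probe sets of Car4 and the brightest probe set of Icam1, Lyve1, Mmrn1, Pecam1, Cdh5 and Ednrb; points are replicates 1 to 3 from left to right and bars give the mean ± SD (n = 3). Car4 separates widely, Icam1 and Lyve1 separate by about 0.5, Mmrn1 separates in the opposite direction, and the Ednrb groups overlap.

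None of the 5 genes of the angiopoietin-Tie system, which controls vessel stability, passed the test. On their brightest probe sets none had an unadjusted limma p under 0.05. Angpt1, the activating ligand made by mesenchymal cells and pericytes, read 8.35, 8.26 and 8.73 in control-labelled lungs, against 8.56, 8.58 and 8.90 in Cre-labelled lungs. The difference was 0.23 (interval -0.10 to 0.56). Angpt2, the context-dependent antagonist made by endothelial cells, read 6.54, 6.35 and 6.40 against 6.60, 6.57 and 6.59, a difference of 0.16 (interval -0.16 to 0.47). The Angpt1 groups overlapped and the Angpt2 groups did not. The receptor gene Tek read 9.48, 9.45 and 9.42 against 9.48, 9.61 and 9.54, a difference of 0.10 (interval -0.11 to 0.30). Its groups did not overlap, although the nearest values of both round to 9.48. A change in Tek of the size seen in Icam1 lies outside the interval. Tie1, the orphan co-receptor gene, varied most: it read 8.26, 8.49 and 7.69 against 8.43, 8.35 and 7.35, with replicate 3 lowest in both groups. Ptprb, the gene of the phosphatase that switches Tek off, read 9.66, 9.54 and 9.65 against 9.31, 9.30 and 9.59 on its brighter probe set. It had differences of -0.22 and -0.32 on its 2 tested probe sets (adjusted p = 0.31 and 0.17). On the dimmer of these the groups did not overlap, and the unadjusted limma p was 0.022.

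Arterial and large vessel genes did not pass either. Ece1, the enzyme that activates endothelins, read 7.88, 7.48 and 7.50 in control-labelled lungs, against 7.17, 7.27 and 6.97 in Cre-labelled lungs. Its groups did not overlap, and the difference was -0.48 ± 0.15 SE (limma adjusted p = 0.11). The arterial gap junction gene Gja4, which encodes a connexin, read 8.05, 7.80 and 7.95 against 7.68, 7.78 and 7.42, without overlap, a difference of -0.30 ± 0.13 SE (adjusted p = 0.23). Nos3, the endothelial nitric oxide synthase gene, read 7.49, 7.30 and 7.41 against 7.48, 7.40 and 6.89, and 1 Cre-labelled array stood below the other values. Nos3 and Vwf, the von Willebrand factor gene, had differences of -0.14 and -0.04, both with overlapping groups. Gja5, another arterial connexin gene, had log2 signals between -0.43 and 0.76 on the 6 arrays, too low to compare.

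Endothelial transcription factor genes had differences of both signs, none past the threshold. Fli1, an ETS factor of endothelial and blood cells, read 9.12, 9.10 and 8.76 in control-labelled lungs, against 9.42, 9.24 and 9.27 in Cre-labelled lungs, so its groups did not overlap. The difference was 0.31 ± 0.12 SE (limma adjusted p = 0.18), while a dimmer Fli1 probe set had -0.05. Erg, a related ETS factor that maintains endothelial identity, read 7.70, 7.25 and 7.02 against 6.89, 7.04 and 6.83. Its groups overlapped, and the difference was -0.40 ± 0.18 SE (adjusted p = 0.25). Ets1 read 11.46, 11.49 and 11.08 against 11.27, 11.37 and 11.19, a difference of -0.06 (interval -0.37 to 0.24). Among the SOX factors, Sox18 read 8.55, 8.41 and 8.50 against 8.30, 8.36 and 7.86 (-0.32 ± 0.14 SE, adjusted p = 0.25). The arterial factor gene Sox17 read 9.60, 9.59 and 9.42 against 9.51, 9.69 and 9.68 on its brightest probe set, whose identifier marks probes that may bind related sequences. The difference there was 0.09, and -0.24 on the other probe set, both with overlapping groups.

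Of the 5 lymphatic and scavenger genes 1, Lyve1, fell, and the others did not pass. Lyve1, a hyaluronan receptor gene expressed in lymphatic endothelium and in some macrophages, read 10.90, 11.03 and 11.04 in control-labelled lungs, against 10.44, 10.61 and 10.45 in Cre-labelled lungs. Which cells carry this difference was not tested. The difference was -0.49 ± 0.10 SE (limma adjusted p = 0.036), and every Cre-labelled array was below every control-labelled array. A separate Lyve1 probe set was also lower without overlap (-0.28 ± 0.10 SE, adjusted p = 0.16). Lyve1 missed the threshold in each of the 6 fits without 1 array (adjusted p 0.064 to 0.12). Mmrn1, which encodes multimerin 1 of lymphatic endothelium and platelets, read 8.15, 8.23 and 7.86 against 8.76, 8.56 and 8.49, so every Cre-labelled array was above every control-labelled array. The difference of 0.52 ± 0.13 SE did not pass (adjusted p = 0.058) and was the largest positive difference of the 43 members. Its sign turned (-0.10) when its dim probe set, at 0.32 to 2.11 on the 6 arrays, was averaged in. The guidance gene Reln, expressed in lymphatic endothelium, read 6.70, 7.0 and 6.92 against 6.21, 6.27 and 6.77 (-0.46 ± 0.18 SE, adjusted p = 0.21). The scavenger receptor gene Stab1 read 7.60, 7.47 and 7.52 against 7.25, 7.42 and 7.61, a difference of -0.11. The groups of both genes overlapped. Prox1, the master regulator of lymphatic identity, read 4.49, 4.05 and 4.08 against 4.15, 3.33 and 4.90, close to the level required for testing, and its interval ran from -0.97 to 0.81.

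Some leukocytes also express Lyve1 or Icam1. The summed linear signal of 4 leukocyte markers (Ptprc, Lyz2, Cd68 and S100a8) was 4415 to 5036 in control-labelled lungs, against 2491 to 2993 in Cre-labelled lungs, without overlap, and 2 of the 4, Lyz2 and S100a8, fell. The 3 tested platelet and megakaryocyte markers did not pass (platelets also carry the products of Mmrn1 and Vwf), and the sum of the 4 listed was 620 to 649 against 510 to 607. Of 5 lung epithelial markers Sftpb fell, and the sums overlapped (10630 to 19041 against 10544 to 11960). Cardiac muscle markers, of which 8 of 8 had lower means and none passed, had sums of 3099 to 12395 against 1846 to 4800. Of 6 pericyte markers 1 fell, Higd1b, with sums of 2434 to 2643 against 2127 to 2293, while 3 smooth muscle markers summed to 4779 to 5520 against 5527 to 5890. The sum of 3 mesothelial markers was 1345 to 1723 against 577 to 976, and 1 of them, Msln, fell. The 3 matched erythroid markers summed to 940 to 1067 against 441 to 829, with Hba-a1 below the level for testing on every array. Sums of skeletal muscle and liver markers overlapped between the groups. The part of these cells in the endothelial values was not tested, except that with the mean of the cardiac markers as a covariate Car4 had a difference of -2.24 (limma adjusted p = 0.018), while Icam1 and Lyve1 had differences of -0.54 and -0.55 and did not pass (adjusted p = 0.057 and 0.075). Cldn5 and Ramp2, which had not passed in the main fit, passed with this covariate. The count of lower members stayed at 3, and the median difference of the members was -0.21.

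Signalling genes of the vessel wall were lower without passing. S1pr1, the sphingosine 1-phosphate receptor that tightens endothelial junctions, read 7.80, 7.33 and 7.62 in control-labelled lungs, against 7.02, 7.10 and 6.83 in Cre-labelled lungs, a difference of -0.60 ± 0.15 SE (limma adjusted p = 0.060). Rasip1, which is needed for vessel lumens, read 6.35, 6.20 and 6.83 against 5.98, 5.89 and 4.71. Its groups did not overlap, but the value of 4.71 set much of the difference of -0.93 ± 0.33 SE (adjusted p = 0.16), which was -0.53 without Cre-labelled replicate 3. Arhgef15, a gene expressed in endothelium, read 7.80, 7.57 and 7.17 against 7.42, 7.07 and 7.12 on its brightest probe set, with overlap. It had differences of -0.31, -0.13 and -0.26 on 3 probe sets.

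Cre-labelled replicate 3 gave the lowest value for 19 of the 43 members, and Cre-labelled replicates 1 and 2 for 8 and 5. The highest value was on control-labelled replicate 3 for 16 members. The summed linear signal of the tested members was 34781, 37180 and 37822 in control-labelled lungs, against 31451, 32888 and 30886 in Cre-labelled lungs, so the groups did not overlap. On Cre-labelled replicate 3 the 3′ minus 5′ difference of the Actb and Gapdh control probe sets, a sign of RNA quality, was 0.45, against 0.04 to 0.23 on the other 5 arrays. Without that array the median difference of the members was -0.19, and 1 member, Car4, passed. With this 3′ minus 5′ difference as a covariate 5 members were lower and 1, Mmrn1, was higher. Each group held 1 array with high Xist signal, so fetal sex was balanced between groups.

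**Figure D4:**
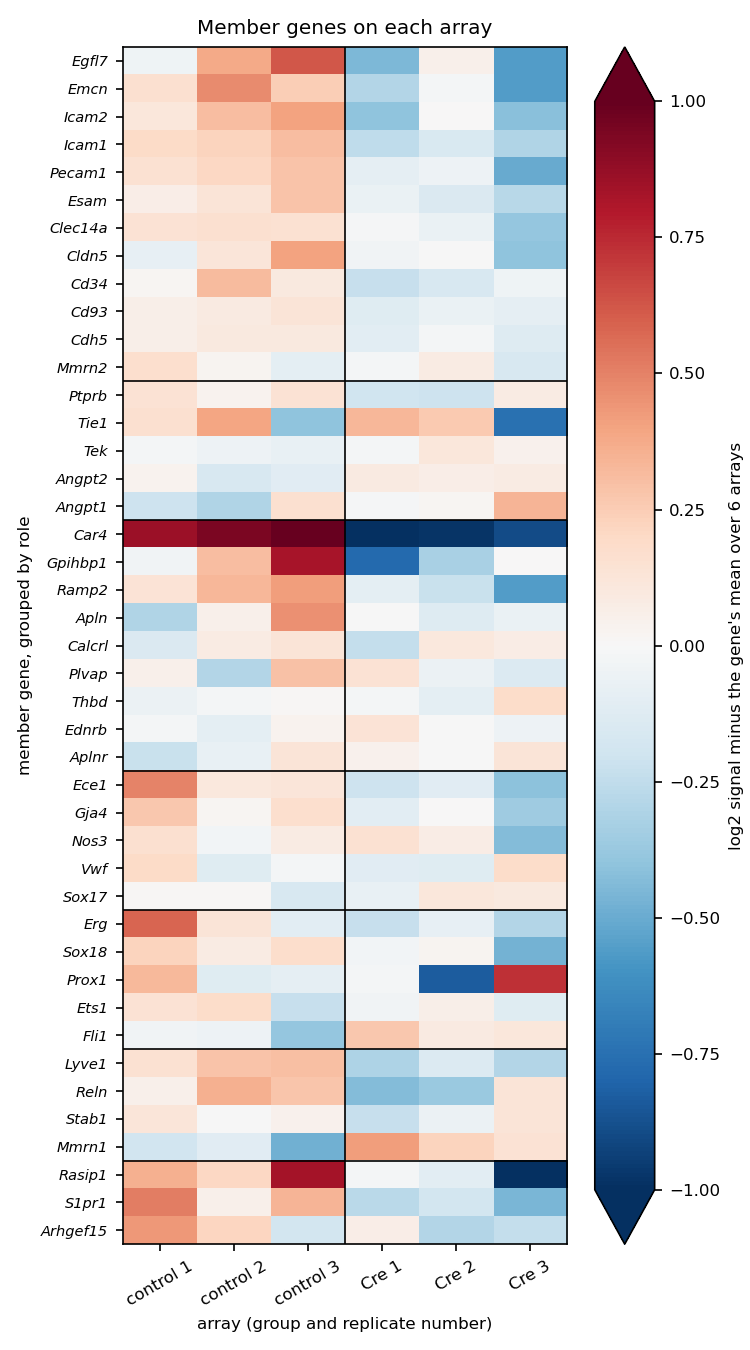
Log2 signal of each of the 43 tested members (rows, grouped by role) on each array (columns), minus the gene's mean over the 6 arrays; colours end at 1 log2 unit in either direction, which Car4 and, on the third Cre-labelled array, Rasip1 exceed. Surface and junction genes are mostly red on the 3 control-labelled arrays and blue on the Cre-labelled arrays, while Fli1 and Mmrn1 show the reverse.

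The probe sets of a gene did not always point the same way. Of 81 member probe sets 68 were tested and 4 passed: both of Car4 and 1 each of Icam1 and Lyve1. Among the 16 genes with several tested probe sets, 8 had differences of the same sign on all of them, among them Car4, Egfl7, Lyve1 and Ptprb. In the other 8, Cd93, Clec14a, Mmrn2, Ednrb, Calcrl, Sox17, Fli1 and Ets1, the signs were mixed. No probe set of these 8 genes passed the test.

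Other endothelial genes, listed by role and not among the members, were also mostly lower. This list was chosen with earlier results of these data known, so its counts are a description and not independent support. It includes Foxf1, which is also in the marker list of lung mesenchyme. Of 49 listed, 47 were matched and 46 tested. Of these, 6 fell (13.0%, beside 3.04% of all genes), the other 40 did not pass, and none of the 46 rose. Their median difference was -0.20, and 37 (80.4%) had lower means, beside 51.5% of all genes. None had an unadjusted limma p under 0.05 with a higher mean. Hey1, a Notch target and arterial factor, had the largest difference: it read 8.34, 8.15 and 8.16 against 7.17, 6.83 and 7.29, without overlap (-1.12 ± 0.14 SE, limma adjusted p = 0.0068). The others were the adhesion receptor gene Adgrf5 (-0.64 ± 0.10 SE, adjusted p = 0.012), the flow-responsive factor gene Klf2 (-0.77 ± 0.13 SE), Klf4 (-0.65 ± 0.14 SE), Emp2 (-0.81 ± 0.14 SE) and Pdpn (-0.82 ± 0.14 SE), the last 4 at adjusted p from 0.015 to 0.035. Emp2 and Pdpn are also abundant in alveolar type I epithelium, and Klf4, Hey1 and Adgrf5 are expressed outside the endothelium too. None of the 5 VEGF receptor genes (Kdr, Flt1, Flt4, Nrp1 and Nrp2) passed, although on the deposited scale all 5 had lower means (median difference -0.30). The 7 genes of the BMP and ALK1 receptor axis likewise all had lower means on that scale, and none passed. Of 12 further endothelial transcription factor genes 6 had lower means and 6 higher ones.

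Scaling to endothelial genes moved the differences of all genes upward. Negative ones shrank or turned positive, and positive ones grew (Mmrn1 from 0.52 to 0.67). With arrays scaled so that the mean of Pecam1, Cdh5, Tek and Tie1 was equal, an alternative added after seeing the data, the median difference of all genes moved to 0.14 and that of the members to -0.065. The mean of these 4 genes was 9.58 ± 0.09 (SD, n = 3) in control-labelled lungs and 9.43 ± 0.22 (SD, n = 3) in Cre-labelled lungs, with overlapping groups. In these 4 genes the difference of -0.15 rests on Cre-labelled replicate 3, the array with the 3′ minus 5′ value of 0.45. Without that array it was -0.022. Kdr, also an endothelial marker, was not in this mean: its difference was -0.50 without overlap and did not pass. The summed linear signal of all 5 endothelial markers was 4576 to 4885 in control-labelled lungs, against 3497 to 4224 in Cre-labelled lungs. These sums did not overlap. On the scale of the 4 genes 1 member passed, Car4 (-1.99, limma adjusted p = 0.0045). The scaling fixes the 4 genes' own differences to balance, so they are left out of the counts: 22 of the other 39 members, 9 of 10 surface and junction genes and 1 of 3 angiopoietin-Tie genes had lower means. The capillary, arterial, transcription factor and lymphatic genes had 3 of 9, 2 of 5, 2 of 6 and 2 of 5 lower. Beside these counts, 31% to 32% of all genes were lower on that scale. Across the array, 61.2% of called probe sets were higher on that scale, against 39.5% as deposited. Under quantile normalization, a common median, and offsets of 16 and 64, 33 or 34 of the 43 members had lower means.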

How the data were processed

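RNA of 6 fetal lung samples was hybridised to Affymetrix arrays, 1 per sample, per the labels' protocols. The authors deposited log2 signals. MAS5 and affy are named, without versions, in the submitters' processing notes. Background correction, scaling target and annotation are not given there.

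The deposited log2 values were used without an offset. Of 45101 probe sets, 64 were controls and stayed out; 34945 others carried 1 symbol, 932 several and 9160 none. Only those with 1 symbol were named, so 2 that pair a member with another gene were left out. Probe sets whose mean reached the 40th percentile (4.0) were tested: 27022. The model was fitted in R 4.3.3 with limma 3.58.1 (lmFit, eBayes with intensity trend, two-sided, no covariates; 4 residual degrees of freedom, the prior adding 5.32), with Benjamini-Hochberg adjustment over all of them and a threshold of 0.05. The fit was tested on simulated data. Each gene stood for its brightest probe set; genes with full values were those past the threshold, those with the smallest p in each role, defining markers, and members whose probe sets differed in sign.

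Members and lists were chosen with earlier results of these data known. Marker lists were endothelium, epithelium, mesenchyme, pericyte, smooth, cardiac and skeletal muscle, liver, erythroid, leukocyte, mesothelium, platelet and sex chromosomes. The 5 mesenchymal markers had sums of 3919 to 4701 in control-labelled lungs, against 4069 to 4206 in Cre-labelled lungs. Normalization, offset, filter, variance model, covariates, replicate block and left-out arrays were varied. With 3 arrays in a group, their number limits the precision. Plots used matplotlib 3.10.9 under Python 3.11.15.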

Additional observations from a re-analysis of the deposited data

How the results depend on the processing

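The call of Car4 held in all 19 alternatives that tested it; a filter at the 60th percentile left it out. Icam1 passed in 9 of 20 (limma adjusted p 0.019 to 0.35) and Lyve1 in 8 of 20 (0.0083 to 0.41). Of the 40 members that did not pass, 7 passed in at least 1 alternative: Ramp2 in 7, Mmrn1 in 5, Icam2 in 4, Emcn and Gpihbp1 in 2, and Cldn5 and S1pr1 in 1; 16 changed sign in some alternative without passing, 20 were lower in every one and 4 (Angpt1, Tek, Aplnr, Fli1) higher in every one.

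The count of lower members, 3, became 6 with quantile normalization, 5 with the 3′ minus 5′ covariate and when all probe sets of a gene were averaged, and 7 at an adjusted p of 0.10. It was 1 with a common median, with no intensity trend, with fetal sex as a covariate, with a 1.5-fold minimum and with arrays scaled to the pan-endothelial mean, and 1 to 2 without 1 array. The count of higher members, 0, became 1 (Mmrn1) with quantile normalization, the filter at the 60th percentile, array weights, the 3′ minus 5′ covariate and an adjusted p of 0.10. The median difference of the members, -0.22, was -0.18 with a common median, -0.065 with the pan-endothelial scaling and -0.25 to -0.19 without 1 array. Probe sets called, 963, fell to 171 with no intensity trend, 587 with fetal sex, 438 with the pan-endothelial scaling and 308 to 499 without 1 array, and rose to 2120 at an adjusted p of 0.10. The cause of these changes was not tested.

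With the replicate number as a block, 6 members were lower, 1 was higher and 1309 probe sets passed. Deviations of same-numbered arrays correlated at -0.01, 0.20 and 0.14, and those of differently numbered arrays at -0.27 to 0.14. The labels state no pairing of replicate numbers. With 3 arrays in a group, these correlations cannot decide whether the arrays were paired.

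Values near the level of 4.0 carry much noise, which limits Prox1 and the size of the Car4 difference.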
